A study of Drosophila melanogaster with 38 samples.

Results

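The EGF receptor and MAPK pathway set held 10 genes, chosen by name for their place in the cascade. They were the ligand gene spi, the protease gene rho, the receptor gene Egfr, the signalling genes Ras85D, Raf, Dsor1 and rl, the ETS factor genes pnt and aop, and the feedback inhibitor gene sty. For each gene, all MSL2 intervals that overlapped the gene body or the 1 kb to either side were taken. The 10 genes stood among 18164 annotated genes on the main chromosome arms, and 22 of the 2508 distinct MSL2 intervals on those arms fell to them. Of the 10 genes, 8 carried at least 1 interval and 2 (Ras85D and rl) carried none.

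The intervals came from chromatin immunoprecipitation and sequencing of dissected Drosophila melanogaster larvae of the third instar, males and females apart, in 38 libraries with 1 library per group. MSL2 was precipitated in 2 libraries, 1 of each sex, through a FLAG tag, from msl-2227/msl-2km mutants in which tub-Gal4 drove the rescuing transgene UAS-msl-2::3Flag. The FLAG control without a tag came from larvae labelled msl-2227/km / CyO-GFP. Of the 38 libraries, 12 were inputs. The remaining immunoprecipitates profiled histones, histone marks and MLE. Their larvae were White-eyed (w1118) Oregon-R, heterozygotes labelled msl-2-delta-7/10 / CyO-GFP, or nulls with msl-2-delta-7 over msl-2-delta-10. No value of a single library is used here. MSL2 thus came from a transgene under a broadly active driver and not from the msl-2 locus, in both sexes and in the mixed tissues of the front part of the larva. The 3 deposited interval lists belong to the series as a whole. One is named for high-affinity sites (HAS) that overlap roX, another holds other X intervals, and the last, called autosomal here, holds intervals away from X. They name no library, sex or threshold, and the only score column holds a single value, so a gene here has a count of intervals and no binding strength. The depth is unknown, no count has a replicate error, and the comparisons below are descriptions without a test.

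The EGF receptor pathway carries a signal from the cell surface to the nucleus. A secreted ligand such as Spitz, released by the protease Rhomboid, activates the receptor tyrosine kinase Egfr, which loads the GTPase Ras with GTP. Ras then acts through the kinases Raf, MEK (Dsor1) and ERK (rolled, the product of rl). ERK phosphorylates the ETS transcription factors, activating Pointed and removing the repressor Yan (the product of aop), while Sprouty (sty) dampens the signal. In larvae the pathway patterns the eye, wing and other imaginal discs and promotes their growth. MSL2 is the DNA-binding subunit of the MSL complex, which in males raises transcription of the single X with the help of the roX RNAs. On X the complex is known to enter at high-affinity sites that hold GA-rich MSL recognition elements.

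The sequences under the intervals differed between genes in the dinucleotide repeats they held. Those that show this most plainly are printed here 5′ to 3′ on the strand of the gene, from the RefSeq genome of build dm6, without the bases of untranslated regions except for a run of 30 bases from Raf. Capitals mark every match to GAGAGAGA (the GA repeat) or CACACACA (the CA repeat), on either strand, with up to 1 mismatch. The pnt sequences lie before its 3 promoters, at chr3R:23346168-23346278, chr3R:23314366-23314515 and chr3R:23295439-23295588 (minus strand), and are shown because each held the GA repeat. The rho sequence, chr3L:1463536-1463810 (plus strand), is the part of its interval before the start, and the aop sequence, chr2L:2161528-2161827 (minus strand), is the stretch just before its internal start. The Raf sequences are a pair of intron intervals rich in the CA repeat, chrX:2305894-2306094 and chrX:2317354-2317533, and a GA run of the 3′ untranslated region inside the HAS, chrX:2343563-2343592 (all plus strand). The sty sequence, chr3L:3400732-3400957 (minus strand), lies past the 3′ end of the gene. This choice favours stretches with repeats. The central 500 bp of the aop interval, of the HAS and of the wide spi interval held neither repeat and are not printed whole.
pnt promoter 1: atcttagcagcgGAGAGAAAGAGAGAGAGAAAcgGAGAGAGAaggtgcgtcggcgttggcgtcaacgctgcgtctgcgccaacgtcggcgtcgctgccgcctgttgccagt
pnt promoter 2: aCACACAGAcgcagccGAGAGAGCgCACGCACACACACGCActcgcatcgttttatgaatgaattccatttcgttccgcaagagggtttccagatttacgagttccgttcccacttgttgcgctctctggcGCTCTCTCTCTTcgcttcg
pnt promoter 3: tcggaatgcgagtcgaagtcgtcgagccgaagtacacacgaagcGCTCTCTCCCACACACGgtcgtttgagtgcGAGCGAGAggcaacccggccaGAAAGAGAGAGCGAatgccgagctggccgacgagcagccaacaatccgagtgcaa
rho promoter: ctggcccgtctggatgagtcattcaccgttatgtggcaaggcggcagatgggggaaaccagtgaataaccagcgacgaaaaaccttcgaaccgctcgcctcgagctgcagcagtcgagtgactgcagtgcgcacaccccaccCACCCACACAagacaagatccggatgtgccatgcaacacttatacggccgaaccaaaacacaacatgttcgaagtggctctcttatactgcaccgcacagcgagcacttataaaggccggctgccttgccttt
aop internal promoter: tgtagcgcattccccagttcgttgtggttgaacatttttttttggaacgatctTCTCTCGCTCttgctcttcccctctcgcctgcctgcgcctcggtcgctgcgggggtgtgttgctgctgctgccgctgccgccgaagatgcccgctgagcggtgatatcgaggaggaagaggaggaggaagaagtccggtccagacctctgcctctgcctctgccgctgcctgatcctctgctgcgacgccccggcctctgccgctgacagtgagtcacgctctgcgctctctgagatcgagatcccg
Raf interval 3: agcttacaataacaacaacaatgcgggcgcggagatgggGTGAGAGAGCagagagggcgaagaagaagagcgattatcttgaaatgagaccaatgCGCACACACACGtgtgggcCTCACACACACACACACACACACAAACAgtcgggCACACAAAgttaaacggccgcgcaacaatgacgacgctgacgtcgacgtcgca
Raf interval 5: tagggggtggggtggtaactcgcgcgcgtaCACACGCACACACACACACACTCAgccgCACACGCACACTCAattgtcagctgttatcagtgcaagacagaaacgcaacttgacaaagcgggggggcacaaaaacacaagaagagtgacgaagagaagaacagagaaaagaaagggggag
Raf HAS: GAAAGAGAGAGAGAGAGAGAGAAAGAGAGA
sty interval 3: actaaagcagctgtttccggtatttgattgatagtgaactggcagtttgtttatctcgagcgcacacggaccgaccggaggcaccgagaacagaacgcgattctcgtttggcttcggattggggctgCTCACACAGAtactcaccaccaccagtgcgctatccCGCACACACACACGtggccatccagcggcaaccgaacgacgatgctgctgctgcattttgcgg

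Intervals were counted gene by gene and set against all genes searched by the same rule. At least 1 interval lay at 8 of the 10 genes (80%), while the background over all genes was 17.7% (3211 of 18164). Over protein-coding genes only, it was 19.8%. Among autosomal genes the counts were 6 of 8 in the pathway and 2250 of 15351 overall (14.7%), and on X they were 2 of 2 and 961 of 2813 (34.2%). The median number per gene was 1 in the pathway and 0 over all genes. Long genes offer more room, so each gene was also read against genes of like span, the span being the gene body plus 1 kb to either side. Under 10 kb on autosomes, rho carried an interval and Ras85D did not, against 11.9% of such genes. Between 10 and 30 kb, spi, aop and sty all carried one, against 32.9%. From 30 kb upward, Egfr and pnt carried one and rl did not, against 35.8%. On X, Dsor1 belonged to the class under 10 kb (30.1%) and Raf to that of 30 kb or more (54.5%). Per 10 kb of searched span the pathway genes held 0.78 intervals, 0.528 on autosomes and 1.81 on X, while the spans of all autosomal genes held 0.19 and those of all X genes 0.419. The genes were picked by name with earlier results of these data known, so these figures describe the 10 genes and do not show that the pathway as a whole stands apart.

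**Figure D1:**
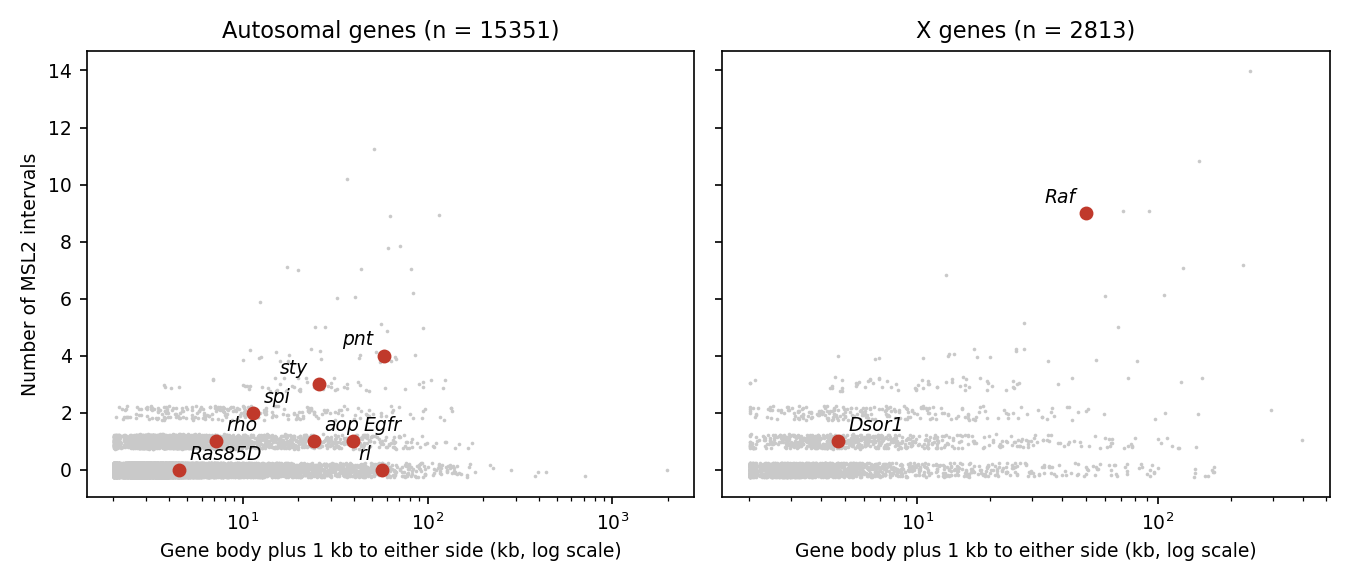
Number of MSL2 intervals (vertical axis) against the length of gene body plus 1 kb to either side in kb (horizontal axis, log scale) for 15351 autosomal and 2813 X genes, with pathway genes in red and all genes as grey points that were shifted slightly up or down at random so that they can be seen. Raf with 9 intervals sits near the top of the X genes, pnt with 4 and sty with 3 sit above most autosomal genes of their length, and rl is at 0 in spite of its length.

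The number of intervals per gene differed within the set. Raf had 9, pnt 4, sty 3 and spi 2, while rho, Egfr, Dsor1 and aop had 1 each and Ras85D and rl had 0. Per 10 kb the order was different, with Dsor1 at 2.13, Raf at 1.79, spi at 1.75, rho at 1.4 and sty at 1.16, followed by pnt at 0.69, aop at 0.412 and Egfr at 0.253. The short gene Dsor1 with its single interval thus led by density, while Raf and spi stood near the top of both orders. No count has a spread, so neighbours that differ by 1 interval cannot be told apart beyond an error. The order of counts below Raf also rested on narrow intervals. With intervals of 200 bp or wider, Raf had 3, while spi, rho, Dsor1, pnt, aop and sty had 1 each. Egfr, Ras85D and rl then had 0. By list, 1 of the 22 intervals was a HAS, 9 came from the other X list and 12 from the autosomal list. The midpoint lay in an intron of the gene for 14, in a 5′ untranslated region for 3, in a coding exon for 1 and outside the gene body for 4.

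**Figure D2:**
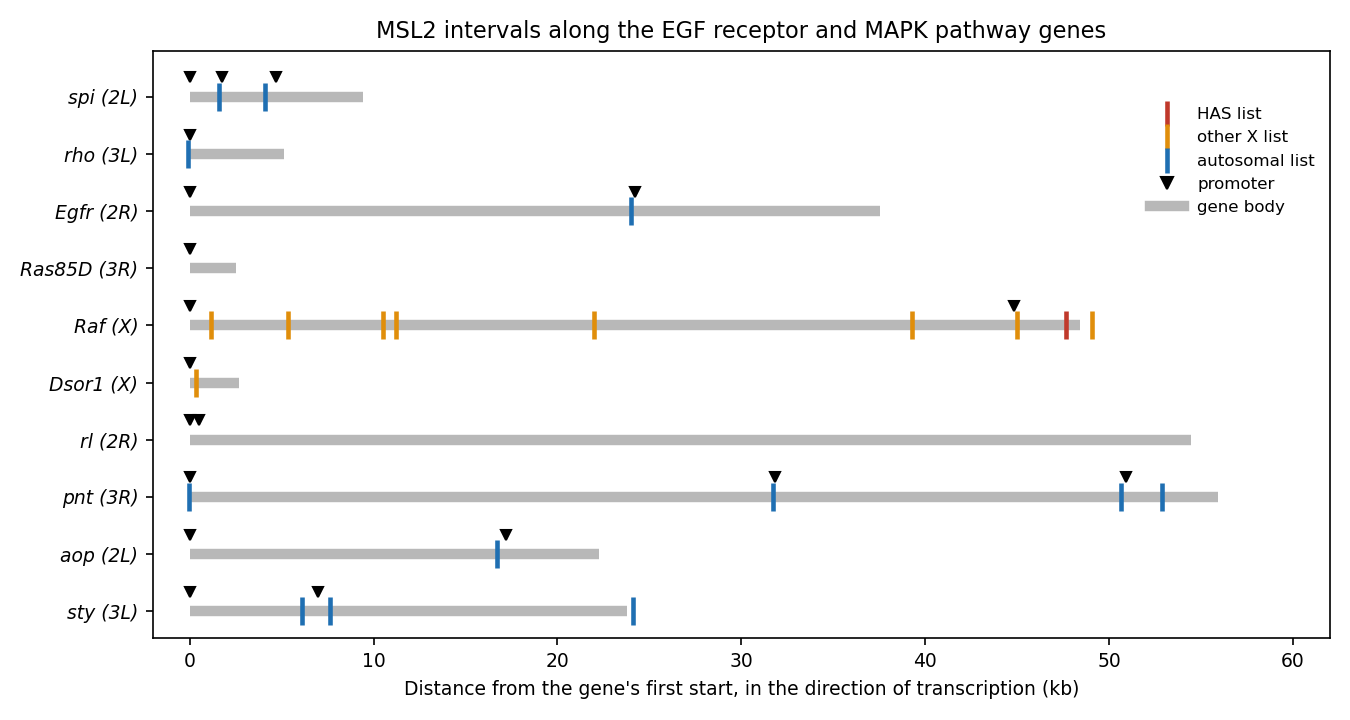
Maps of the 10 genes drawn to scale from the first annotated start (horizontal axis, kb in the direction of transcription), with the gene body as a grey bar, promoters as triangles and interval midpoints as ticks coloured by list. Ticks stand beside internal promoters of spi, Egfr, Raf, pnt and aop, 9 ticks run along Raf, and none stands on Ras85D or rl.

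The ligand gene spi encodes Spitz, the main activating ligand of the receptor. It lies on 2L at 19567900 to 19577315 (minus strand, dm6) with 3 promoters, and it carried 2 autosomal intervals. The wider one, 961 bp at 19575253 to 19576213, covered the internal start of transcript spi-RG, with its midpoint 146 bp upstream. Only 3.24% of the autosomal list was wider. The narrower one, 175 bp at 19573129 to 19573303, lay in an intron, 606 bp upstream of the start shared by spi-RB and spi-RE. The first promoter, that of spi-RA and spi-RF, was 1.73 kb upstream of the start of spi-RG and had no interval within 500 bp. The next interval outside the searched span was 2968 bp from the gene body. Repeats lay toward the edges of the wide interval, with 17 start positions of the CA repeat, 7 of them exact, and 2 of the GA repeat, while the 300 bases before the start of spi-RG held neither. The central 500 bp of this interval held neither as well.

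The protease gene rho encodes Rhomboid, which cleaves Spitz inside the secretory pathway and whose transcription is known to limit where the ligand is released. Its body (3L, 1463811 to 1468944, plus strand) has 1 promoter, and its single interval, 339 bp at 1463536 to 1463874, overlapped that start with the midpoint 106 bp upstream. The interval was isolated, with the next one 53.8 kb away. The gene sits in an intron of the phosphatase gene Ptp61F, and the searched span of the noncoding RNA gene lncRNA:CR44842 also takes the interval in, so it counts for these 2 genes as well. Within the printed stretch before the start, the GA repeat was at 0 and the CA repeat had 2 overlapping starts.

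The receptor gene Egfr spans 37558 bp on 2R (21522420 to 21559977, plus strand), and its single interval lay deep inside it. This interval, 199 bp at 21546321 to 21546519, stood 223 bp upstream of the internal start of Egfr-RB, which is 24.2 kb downstream of the start of Egfr-RA. The start of Egfr-RA had no interval within 500 bp, and the nearest interval beyond this one was 24.8 kb away. GA repeats were dense around it, with 13 start positions in the 500 bp at its midpoint, 3 of them exact, although only 1 start fell inside the interval itself. At 0.503% of the searched span, the covered share was the lowest among the genes with an interval.

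The cascade below the receptor was uneven. Ras85D encodes the Ras GTPase that links the receptor to Raf, and its 2507 bp body (3R, 9510561 to 9513067, minus strand) had no interval. The nearest one, at 9502463 to 9502674, was 7887 bp from the body. The kinase genes that follow, Raf and Dsor1, both on X, carried 9 and 1, and the MAP kinase gene rl carried 0.

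Raf encodes the MAP kinase kinase kinase and had the most intervals of the set, although their 5.43% share of its searched span was below the 12.2% of Dsor1 and the 9.95% of spi. Its body (X, 2295466 to 2343870, plus strand) has a first start for Raf-RE and an internal start for Raf-RA, 44.8 kb downstream. Of 2813 X genes, 5 had 9 or more intervals, and all 5 were among the 143 X genes with spans of 30 kb or more. Counted from the first start, the midpoints lay at 1.15, 5.36, 10.5, 11.2, 22, 39.3, 45, 47.6 and 49.1 kb. They thus ran along the whole gene, with the pair at 10.5 and 11.2 kb only 512 bp apart and none within 500 bp of the first start. In the same order the widths were 199, 166, 201, 172, 180, 179, 156, 1243 and 239 bp, so 8 of the 9 were narrower than the 249.5 bp median of the other X list. The exception was the HAS, at 2342485 to 2343727, which 11.9% of the HAS list exceeded in width. Its midpoint lay in a coding exon and it reached into the 3′ untranslated region, and the next HAS was 63.6 kb from the gene.

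Of the 9 Raf intervals, 4 stood closer to the start of another gene than to a start of Raf. The HAS was among them, with its midpoint 1543 bp from the start of mRpL14, a mitochondrial ribosomal protein gene, and 2808 bp from that of Raf-RA. The interval at 22 kb was 4821 bp from the start of lncRNA:CR34052 and 21977 bp from that of Raf-RE. The interval at 2334670 to 2334848 was 101 bp from the start of Ilp6, an insulin-like peptide gene that shares this interval, and 5539 bp from the start of Raf-RA. The interval at 2344399 to 2344637 lay 529 bp past the 3′ end of Raf and 131 bp from the start of mRpL14, and it also counts for CG2841. The interval at 2340388 to 2340543 was nearest to Raf itself, 167 bp downstream of the start of Raf-RA in its 5′ untranslated region. Just outside the 1 kb limit, an interval at 2293315 to 2293554 was 1912 bp upstream of the gene and 23 bp from the start of CG2865. These neighbours share their intervals with Raf by position, and which gene an interval belongs to cannot be read from the lists.

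Counted inside the intervals, repeats divided those of Raf. The first 5, all in the large intron region between the starts, had 5, 7, 15, 11 and 12 start positions of the CA repeat, and the GA repeat had 2 in the interval at 10.5 kb and 0 in the others. The CA runs stand out in the printed sequences at 10.5 and 22 kb. The HAS, which was longer than the first 5 (1243 bp against 166 to 201 bp), had the reverse. It held 16 start positions of the GA repeat, 8 of them exact, and 2 of the CA repeat. Of these 16, 14 sat in a run of 34 bp at 2343563 to 2343596 in the 3′ untranslated region, most of which is printed above. This run lies outside the central 500 bp of the HAS, which held neither repeat. The 500 bp at the midpoints of the intervals at 10.5, 11.2 and 22 kb held 6, 4 and 5 GA starts. The GA contrast therefore did not hold in windows of equal length. None of the 8 other Raf intervals held an exact GA repeat inside it.

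Dsor1 encodes MEK, the kinase between Raf and ERK, and it is a short gene of 2696 bp (X, 9247342 to 9250037, plus strand). Its interval, 573 bp at 9247419 to 9247991, overlapped the start of Dsor1-RB with the midpoint 76 bp downstream, and 15% of the other X list was wider. The starts of Dsor1-RA and Dsor1-RB are close enough to count as a single promoter here. The interval also falls within the searched span of the neighbouring gene amx. It held 1 start of the GA repeat and 2 of the CA repeat, all in the 5′ untranslated region. A further interval at 9251190 to 9251345 fell just outside the limit, 1153 bp from the body, and the nearest HAS, at 9255107 to 9255355, was 5070 bp away.

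The MAP kinase gene rl, named rolled, had no interval in spite of its length. It spans 54466 bp (2R, 1071462 to 1125927, plus strand), and the nearest interval, at 1826415 to 1826661, was 700488 bp away. The gene lies in the heterochromatin near the centromere. In the reference, 48.6% of its bases are masked as repeats, against 12.2% to 24% in the other 9 genes and 20.2% over the whole arm. Fewer reads can be placed uniquely in repeats, and the part of this in the count of 0 was not tested.

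Among the nuclear factors, pnt had an interval at every promoter. It encodes the ETS activator Pointed in several isoforms from 3 promoters (3R, 23290231 to 23346167, minus strand), and 40 of 15351 autosomal genes had 4 or more intervals, 24 of them among the 593 with spans of 30 kb or more. The interval at 23346124 to 23346278 (155 bp) covered the first start, that of pnt-RB. The interval at 23314366 to 23314515 (150 bp) was centred 125 bp upstream of the start of pnt-RD, 31.9 kb into the gene. The interval at 23295439 to 23295588 (150 bp) was centred 275 bp upstream of the start of pnt-RC and pnt-RE, 50.9 kb into the gene. All 3 are among the narrowest of the lists, in which no interval is under 150 bp. The last, 237 bp at 23293169 to 23293405, lay in an intron 1951 bp downstream of that start. The promoter intervals had 8, 4 and 7 start positions of the GA repeat, in the order of transcription, and 0, 6 and 2 of the CA repeat. In the first, the GA repeats form a run of 30 bp that ends 70 bp upstream of the start, and 3 of its matches are exact. The intron interval had 1 GA and 2 CA starts.

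The repressor gene aop, which encodes the ETS factor Yan, had 1 wide interval. Its body lies at 2156484 to 2178754 on 2L (minus strand), and the interval, 1158 bp at 2161461 to 2162618, covered the internal start of aop-RA and aop-RD, 17.2 kb from the first. Only 1.98% of the autosomal list was wider. The midpoint was 512 bp upstream of that start, so most of the interval lay in the intron before it, and the first promoter had none. No other interval lay within 30.8 kb. The GA repeat had 2 overlapping starts, 247 to 238 bp upstream of the start and visible in the printed sequence, and the CA repeat had 5 farther upstream, between 903 and 816 bp. The central 500 bp of the interval held neither, so it counts as without either repeat in the set totals. The intervals of pnt and aop therefore differed in form. Narrow intervals stood at each start of pnt, besides the 1 in its intron, while a single wide one covered an internal start of aop. Whether this relates to the roles of their proteins was not tested.

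The feedback inhibitor gene sty encodes Sprouty, an antagonist of receptor tyrosine kinase signalling. It lies on 3L at 3401153 to 3424935 (minus strand) and carried 3 intervals, a number reached by 94 autosomal genes. The interval at 3418728 to 3418877 (150 bp) was centred 841 bp upstream of the internal start of sty-RB. The interval at 3417199 to 3417396 (198 bp) was centred 664 bp downstream of the same start, in its 5′ untranslated region. Both flanked that start, and neither promoter of sty had an interval within 500 bp. The remaining interval, 226 bp at 3400732 to 3400957, lay 196 bp past the 3′ end of the gene, 6756 bp from the nearest start, that of lncRNA:CR45737. The flanking interval upstream held neither repeat, while the one downstream had 13 CA starts and the one past the 3′ end had 6, with 0 of the GA repeat in both.

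The position of intervals at internal promoters was compared over the set, a comparison chosen after the maps had been seen. Starts of a gene within 500 bp of each other were joined into a single promoter, and a promoter counted as covered when an interval came within 500 bp of it. Of the 10 genes, 7 had more than 1 promoter. The first promoter was covered in 1 of the 7 (pnt), against a background of 20.3% over 2170 genes with more than 1 promoter. An internal promoter was covered in 5 of the 7 (spi, Egfr, Raf, pnt and aop), against 18.7%. The remaining genes, sty and rl, had neither covered, and the starts of rl are 513 bp apart, barely enough to count as separate. Counted by promoter, 6 of the 9 internal promoters of the set were covered, against 14% of 3282 internal promoters over all genes. The 3 genes with a single promoter were covered in the case of rho and Dsor1 and not in that of Ras85D. Most of these promoters were covered by narrow intervals. Those at the internal promoters of Egfr (199 bp), Raf (156 bp) and pnt (150 and 150 bp), and at the first of pnt (155 bp), were under 200 bp. Only spi (961 bp) and aop (1158 bp) had a wider one at an internal promoter. The comparison was not repeated without narrow intervals. The backgrounds were not matched for span, although genes with longer spans more often carried an interval. With 7 genes picked with earlier results known, this remains a description of where their intervals lie.

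**Figure D3:**
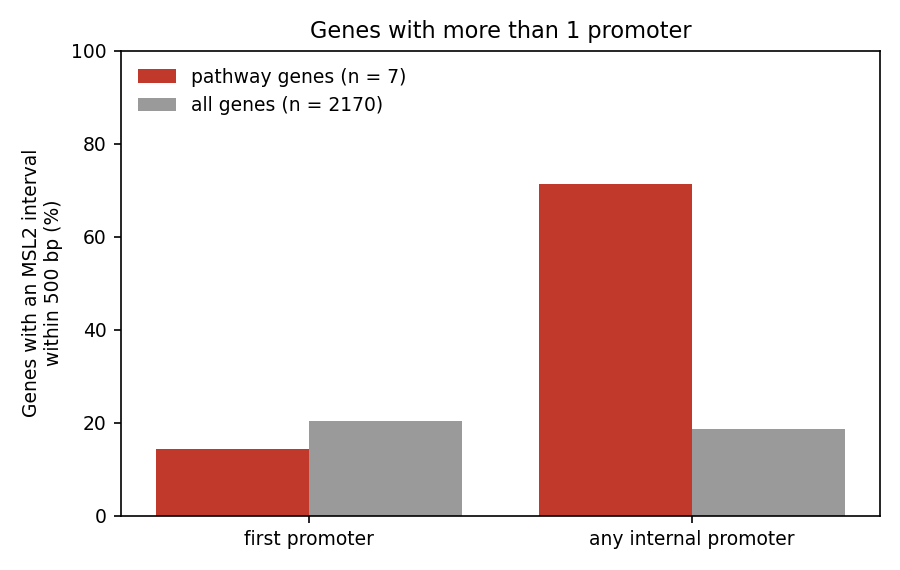
Share of genes with more than 1 promoter (vertical axis, percent, from 0) that have an MSL2 interval within 500 bp of the first promoter or of any internal promoter, for 7 pathway genes (red) and 2170 genes over all arms (grey). For the pathway genes the bars stand for 1 of 7 and 5 of 7, and for all genes for 20.3% and 18.7%.

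Measured to the nearest start of the gene itself, 8 of the 22 intervals were centred within 500 bp, 12 within 1000 bp, and 5 overlapped it. By midpoint, 10 lay upstream and 12 downstream. With starts of any gene allowed, 10 of 22 were centred within 500 bp of a start (45.5%, 95% Wilson interval 26.9% to 65.3%). The share was 64.5% over all intervals, 66.5% in the autosomal list, 66.6% in the other X list and 34% in the HAS list. The 64.5% lay inside that Wilson interval, and the 66.5% and 66.6% just above it. In Raf, 3 of the 9 were centred near any start, and in the other genes 7 of 13. The intervals were also narrow, with a median of 198.5 bp and a range of 150 to 1243 bp, against a median of 242 bp over all intervals. Of the 22, 17 were narrower than 300 bp, and the 5 wider ones were those of spi, rho, aop and Dsor1 and the HAS of Raf. Except for the HAS, each of these wide intervals overlapped a start of its gene. Wilson intervals treat each interval as independent, which the 9 in Raf are not, and cover counting error only.

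Repeats were counted over the set in the 500 bp at each midpoint, on both strands and with up to 1 mismatch. The GA repeat was found at 12 of 22 intervals (54.5%, 95% Wilson interval 34.7% to 73.1%), and at 48.7% of all intervals. The CA repeat was found at 17 of 22 (77.3%, 56.6% to 89.9%), and at 63.5% of all intervals. Both values over all intervals fell inside the pathway's Wilson intervals, which cover counting error only and treat the 9 intervals of Raf as independent. No difference was tested. In windows of the same length at the starts of all genes, the GA repeat was present at 23.6% and the CA repeat at 39.6%. As controls, an A tract (AAAAAAAA, up to 1 mismatch) was present at 20 of 22 intervals (90.9%), at 75.2% of all intervals and at 79.3% of gene starts. The DRE (TATCGATA, no mismatch), the site of the factor DREF, was at 0 of 22, with a Wilson upper bound of 14.9%. It was present at 5.02% of all intervals and at 7.97% of gene starts. By gene, the GA repeat was near all 4 intervals of pnt and 4 of the 9 of Raf, and the CA repeat near 8 of the 9 of Raf and all 3 of sty.

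**Figure D4:**
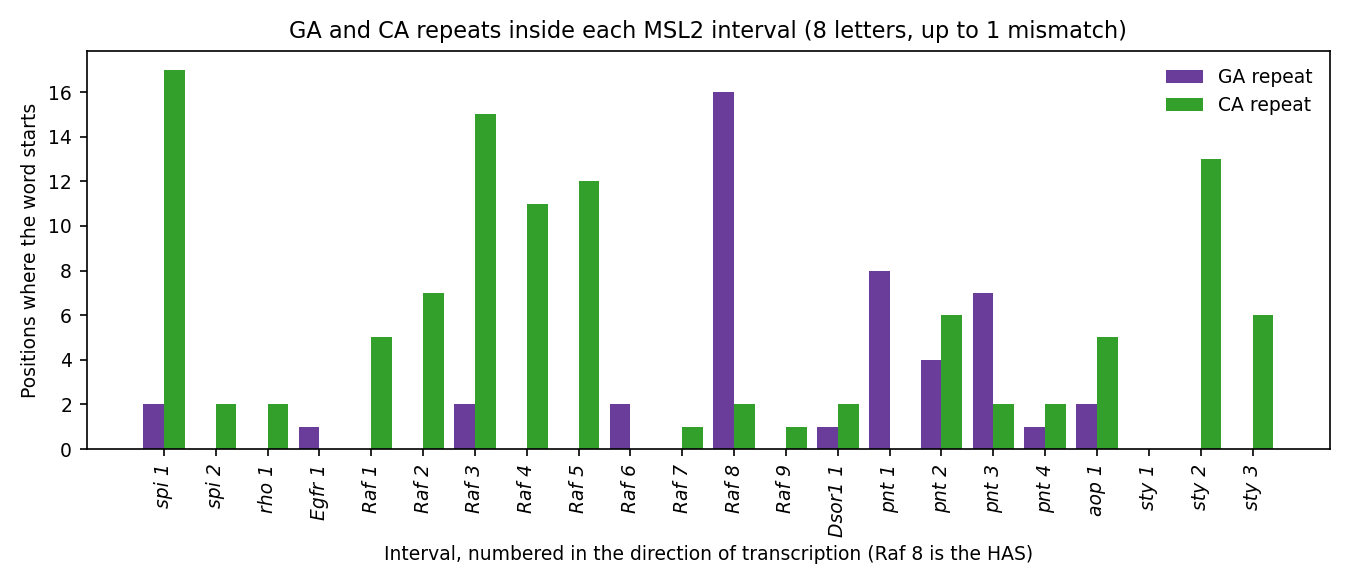
Number of positions (vertical axis, from 0) at which the GA repeat (purple) or the CA repeat (green) starts inside each of the 22 MSL2 intervals, with up to 1 mismatch, ordered by gene and by the direction of transcription. The Raf HAS has 16 GA starts and the promoter intervals of pnt 8, 4 and 7, while the first 5 Raf intervals have 5 to 15 CA starts and the wide spi interval has 17.

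Other genes of the pathway were searched from a list of 47, and 13 of them carried an interval (27.7%), 11 of 44 on autosomes (25%) and 2 of 3 on X. The shares over all genes were 17.7%, 14.7% on autosomes and 34.2% on X. By span, the autosomal shares were 11.9% under 10 kb, 32.9% from 10 to 30 kb and 35.8% from 30 kb upward. The listed genes fall in each of these classes and were not matched by span, so whether the list stands apart from genes of like length was not tested. Of the nuclear factors 4 of 6 carried one, namely the repressor genes cic, gro and ttk and the gene edl, whose product antagonises ETS factors. The intervals of cic (644 bp) and edl (157 bp) were centred 192 and 2 bp from a start of the gene, and gro had one of 265 bp and one of 291 bp, 8 and 30 bp from a start. The gene ttk had one of 153 bp and one of 923 bp, 3074 and 317 bp from a start. Among the adaptors, Ras activators and GTPase-activating proteins, 4 of 9 carried one, namely the exchange factor gene Sos, the phosphatase gene csw on X, the ubiquitin ligase gene Cbl and RasGAP1. That of RasGAP1, 1376 bp, belongs to the HAS list although the gene lies on 3L. Of the phosphatases and Raf inhibitors, Mkp3 and mts carried one (2 of 4), and that of Mkp3 was 5013 bp from its nearest start. Among 6 further genes for ligands and their processing, only the cargo receptor gene S carried an interval, 240 bp wide and 7 bp from a start. None lay at the inhibitor genes aos and kek1 or at the 4 scaffold genes ksr, cnk, ave and Sur-8. Of 16 genes of other receptor tyrosine kinases, their ligands and adaptor, the FGF ligand gene pyr and the PDGF- and VEGF-like ligand gene Pvf1 carried one.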

How the data were processed

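Chromatin from larvae was immunoprecipitated and sequenced by the authors. Tools listed in the submitters' processing notes were MACS2 (version 2.1.1.20160309.0), Bowtie2 (version 2.3.0.1) and bedtools, with the builds dm6 and BDGP6 and no roles. The deposited lists give chromosome, start and end, and the deposited score column of the autosomal list holds 1 distinct value. The sources used here do not say which threshold was applied or whether libraries were pooled. The depth is unknown.

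The lists held 2535 rows, of which 11 repeated an interval and 16 intervals lay on Y or unplaced scaffolds, leaving 2508. Starts were made 1-based. Genes came from Ensembl release 115 (BDGP6, annotation 54) without transposable elements, and sequence from the RefSeq genome of the same assembly. An overlap of 1 bp or more counted, and words were searched in 500 bp windows with up to 1 mismatch. Python 3.11.15, pandas 2.3.3, NumPy 2.4.6 and matplotlib 3.10.9 were used, and the counting was tested on simulated intervals. The 10 genes and the list of 48 other names (47 genes, since Gap1 is an older symbol of RasGAP1) were chosen with earlier results of these data known. Named genes were all 10, every gene nearest to or sharing their intervals, and up to 4 listed genes with an interval per group. Alternatives changed the searched span, the overlap, the interval width, the lists, the merging of neighbours, the TSS distance and the words. Merging joined intervals under 500 bp apart. It could not alter results for the 10 genes, whose intervals were at least 512 bp from any other.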

Additional observations from a re-analysis of the deposited data

How the results depend on the processing

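Of 64 alternative values, 53 stayed within 1.5 times the value reported or, for shares, within its 95% Wilson interval. The other 11 moved further. A Wilson interval covers counting error only, so a share could change much and still be counted among the 53. The GA repeat share went from 54.5% to 36.4% in 200 bp windows. The share centred near a start went from 45.5% to 63.6% within 1000 bp. The merged values of the 10 genes were bound to stay. With intervals of 200 bp or wider, intervals at the pathway genes fell from 22 to 9 and the density from 0.78 to 0.319 per 10 kb. The genes with an interval fell from 8 to 7 (Egfr was lost), while the share over all genes fell from 17.7% to 12.3%. The GA repeat share fell to 33.3% (below the 48.7% of all intervals of any width, a value not recomputed for wide ones). The median width rose to 339 bp. The share of all genes with an interval was 11.7% for the gene body alone and 30.5% with 5 kb to either side, where 20 of the other pathway genes carried one. With 0 mismatches the GA repeat share was 22.7% and the CA repeat share 50%, and with words of 6 dinucleotides they were 13.6% and 50%. No stricter threshold of the authors could be applied, since the score takes a single value. No paired analysis was possible because each group held 1 library and no result came from a test. The counts rest on lists without depth, replicate or strength, so a gene at 0 may hold binding below an unknown limit.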
